A study of Mus musculus with 6 samples.

Results

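Clotting and the removal of clots are carried out by a small set of proteases and their inhibitors, and macrophages are known to make several of them. Expression of 9 such genes was examined in mouse mammary gland macrophages: F3, F7, F10, F13a1, Thbd, Procr, Tfpi, Plau and Plaur. They were chosen by symbol, as genes of the clotting cascade and of plasminogen activation, and all 9 were found among the 24061 gene symbols of the count table. The study asked how macrophages that carry the hyaluronan receptor Lyve-1 differ from those that lack it. CD45+CD11b+F4/80+ cells from the #4 inguinal glands of female FVB/N mice were sorted into Lyve-1- and Lyve-1+ subsets, with the lymph nodes removed first. RNA-seq was made from 3 libraries of each subset, and 4 mice were pooled for each library. In both subsets, replicate 1 came from mice aged 6 weeks and replicates 2 and 3 from mice aged 10 weeks, and the labels name no treatment and no introduced allele. The p-values below measure the spread between these pools.

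Clotting outside the vessel starts when tissue factor, the product of F3, binds factor VII on a membrane. This complex activates factor X, which leads to thrombin and fibrin, and the A subunit of factor XIII (F13a1) then cross-links the fibrin strands. Thrombomodulin (Thbd) and the endothelial protein C receptor (Procr) turn thrombin towards the activation of protein C, an anticoagulant, and tissue factor pathway inhibitor (Tfpi) blocks the initial complex. Fibrin is dissolved by plasmin, which urokinase (Plau) releases from plasminogen, mostly while it is held at the cell surface by its receptor (Plaur). F13a1 is known as a gene of resident tissue macrophages, monocytes and megakaryocytes, whereas Thbd, Procr and Tfpi are best known from endothelium, and F7 and F10 from liver.

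Of the 9 genes, F13a1 had the largest difference between the subsets and the smallest p. Levels are given as counts per library size scaled with TMM factors (CPM), and the subsets were compared with edgeR's quasi-likelihood test with Benjamini-Hochberg adjustment over the 13348 genes that passed a filter on low counts, which all 9 members passed. Genes were called at an absolute log2 fold change between 1 and 10 and an adjusted p under 0.01. The legend of the study's heat map gives these limits, and reading its fold limits on the log2 scale was a choice made here. No member passed these limits, which 0.112% of all genes tested passed (0.105% in the higher direction). F13a1 alone had an adjusted p under 0.05, as did 0.629% of all genes in either direction and 0.45% in the higher direction, and it rose in the Lyve-1+ subset. At an unadjusted p under 0.05 there were 2 members, F13a1 and Thbd, against 7.69% of all genes, and DESeq2 with the stricter limits called 1 member, F13a1, and 0.952% of all genes. Of the 9 genes, 4 had a higher and 5 a lower fitted level in Lyve-1+ macrophages, with a median log2 fold change of -0.20 beside -0.01 over all genes. In these pools, more cells that express a gene and more RNA per cell cannot be told apart.

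The Lyve-1 labels of the sort were met by Lyve1 itself. Lyve1 was at 1.43 to 7.44 CPM in the Lyve-1- libraries and at 597 to 2352 CPM in the Lyve-1+ libraries. Its log2 fold change was 7.93 (SE 0.94, adjusted p = 0.0254 in edgeR's test). Even the gene of the sort thus did not pass the limits of the calls, so failing them does not show that a difference is absent. Itgam (CD11b) and Emr1 (F4/80) overlapped between the subsets. Ptprc (CD45) was at 1693, 1210 and 1309 CPM in Lyve-1- and 645, 966 and 1128 CPM in Lyve-1+ replicates 1, 2 and 3. It was thus lower in Lyve-1+ libraries without overlap, as were 6.5% of all genes tested. Its log2 fold change was -0.62 (adjusted p = 0.541 in edgeR's test). Library totals ran from 6478007 to 21406839 counts, so that a count of 0, which allows up to 3 counts, allows a level of up to 0.14 to 0.463 CPM, a limit that covers counting error only. Of 1124 olfactory receptor genes, which macrophages are not known to use, 654 had counts in Lyve-1- replicate 3, which stood apart, 371 and 134 in Lyve-1+ replicates 1 and 2, and 4 to 34 in the other libraries. F7 had 0 counts in Lyve-1- replicate 1, and wherever a member was counted, its count per kb of exon was at least 3.28 times the density of these receptor counts (the lowest value was for F3 in Lyve-1- replicate 3), and F13a1, Plau and Plaur were at 139 times or more in every library. Fibroblast markers lay mostly higher: all 8 had a higher fitted level in the Lyve-1+ subset and 5 did not overlap, with summed levels of 1010 to 1210 CPM in Lyve-1- and 1790 to 7100 CPM in Lyve-1+ libraries, although none had an adjusted p under 0.05 in edgeR's test. The part of such cells in the results was not tested.

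**Figure D1:**
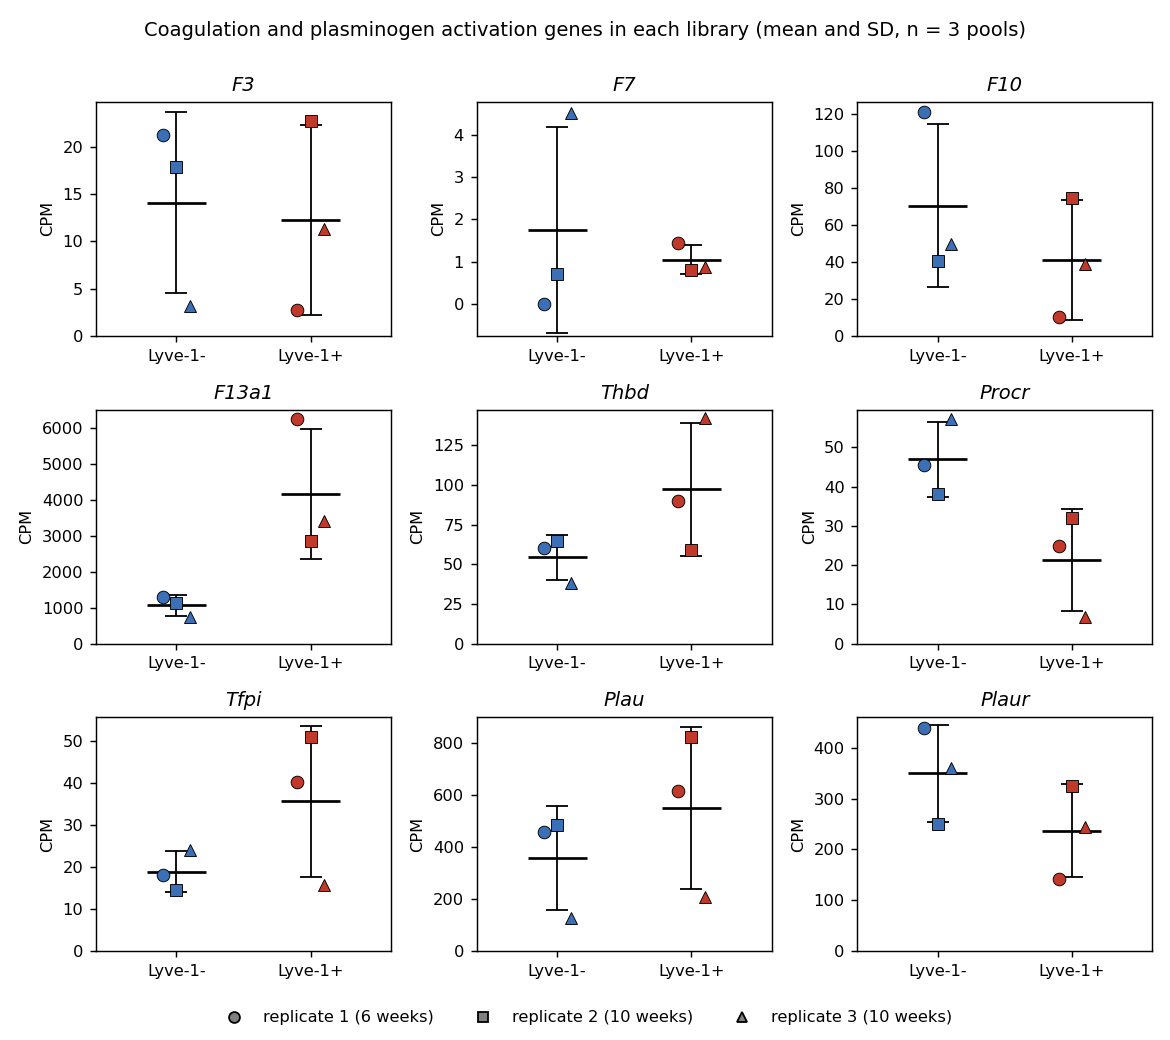
CPM of each of the 9 genes (y axis, linear, a scale of its own per gene) in the 3 Lyve-1- and 3 Lyve-1+ libraries; points are libraries with the replicate and age shown by shape, and bars are the mean and SD (n = 3 pools). F13a1 lies at 745 to 1303 CPM in Lyve-1- and 2859 to 6248 CPM in Lyve-1+ libraries with no overlap, Procr lies lower in every Lyve-1+ library, and the other 7 genes overlap.

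F13a1 encodes the transglutaminase that joins fibrin strands to each other and to other matrix proteins. The gene lies on chromosome 13 (mm10, chr13:36867178-37050244, minus strand) with 6739 bases of exon. It was at 1303, 1144 and 745 CPM in Lyve-1- replicates 1, 2 and 3, and at 6248, 2859 and 3404 CPM in Lyve-1+ replicates 1, 2 and 3. The subsets did not overlap, and the highest level was that of the Lyve-1+ pool from 6-week-old mice. The means were 1064 ± 288 CPM and 4170 ± 1820 CPM (SD, n = 3 each). This was a log2 fold change of 1.97 (SE 0.31, 95% interval 1.30 to 2.64), or 3.92-fold, with an adjusted p = 0.012 in edgeR's test. Between libraries of the same number, the Lyve-1+ level was 4.8, 2.5 and 4.57 times the Lyve-1- level.

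The F13a1 transcript took between 0.0788% (Lyve-1- replicate 3) and 0.601% (Lyve-1+ replicate 1) of all counts in a library. With DESeq2 the log2 fold change was 1.93 with an adjusted p = 1.1e-06. F13a1 also passed the limits of the calls in edgeR's test with no filter on low counts, as did 0.868% of all genes, with at least 10 counts in every library (0.361%) and with age as a covariate (0.435%). Without Lyve-1- replicate 3, the library with the highest share of olfactory receptor counts and the lowest level of F13a1, the log2 fold change was 1.77 with an adjusted p = 0.0751 in edgeR's test. With Lyve-1+ replicate 1, which had the next highest share of such counts, left out as well it was 1.34 (adjusted p = 0.135), and over all 18 alternative settings the adjusted p ran from 9.88e-11 to 0.135. F13a1 had already been picked out on these same libraries, so its direction is not independent evidence.

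Levels of other cell types were set beside F13a1, since platelets and megakaryocytes are rich in it. Of 10 platelet and megakaryocyte markers, only Pf4 was counted in every library. Markers at 0 numbered 6, 6 and 0 in Lyve-1- replicates 1, 2 and 3 and 1, 2 and 7 in Lyve-1+ replicates 1, 2 and 3. Summed, the 10 markers reached 135 to 217 CPM in Lyve-1- and 280 to 431 CPM in Lyve-1+ libraries. Pf4, which resident macrophages also express, made up most of this sum with 95.6 to 194 and 273 to 414 CPM. Fibroblast markers summed to 1210, 1160 and 1010 CPM in Lyve-1- replicates 1, 2 and 3 and to 2380, 1790 and 7100 CPM in Lyve-1+ replicates 1, 2 and 3, so that they lay higher in every Lyve-1+ library, as F13a1 did. The 7 monocyte markers, all counted in every library, overlapped between the subsets. They summed to 680, 987 and 485 CPM in Lyve-1- and to 310, 733 and 389 CPM in Lyve-1+ replicates 1, 2 and 3. The part of platelets, of fibroblasts and of monocytes in the F13a1 difference was not tested.

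**Figure D2:**
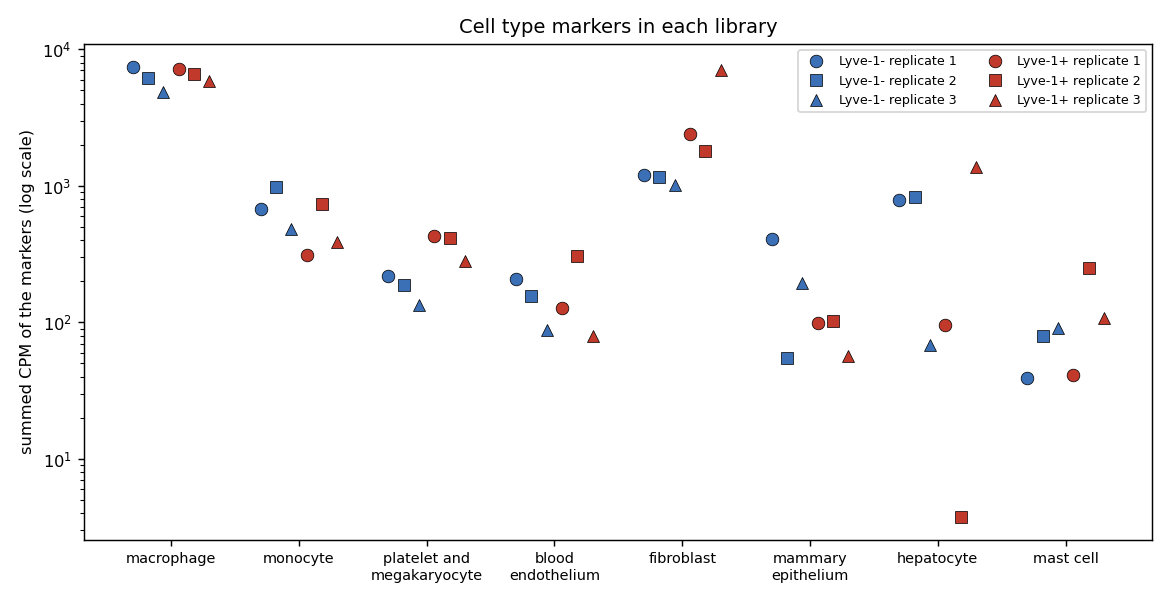
Summed CPM of markers of 8 cell types (y axis, log scale) in each of the 6 libraries, in color by subset and by shape for the replicate. Macrophage markers lie at 4850 to 7480 CPM in all libraries, fibroblast markers lie higher in every Lyve-1+ library, and hepatocyte markers run from 3.74 to 1370 CPM without following the subsets.

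F13a1 and Procr were the 2 members whose subsets did not overlap, 1 higher and 1 lower in Lyve-1+ macrophages. Over all genes tested, the subsets did not overlap for 14.3%, of which the higher genes were 7.82% of all and the lower genes 6.5%. The adjusted p in edgeR's test was 0.012 for F13a1 and 0.698 for Procr, so the lack of overlap of Procr is a description only. The sequences upstream of the RefSeq start sites of F13a1 and Procr are shown because of this lack of overlap. They hold the 250 bases before the RefSeq start on GRCm38.p6, the assembly of mm10, at chr13:37050245-37050494 on the minus strand for F13a1 and at chr2:155750967-155751216 on the plus strand for Procr, each read 5′ to 3′ in the direction of its gene. The RefSeq start of Procr lies downstream of its GENCODE start, so the end of its window falls within the gene as GENCODE places it.
F13a1: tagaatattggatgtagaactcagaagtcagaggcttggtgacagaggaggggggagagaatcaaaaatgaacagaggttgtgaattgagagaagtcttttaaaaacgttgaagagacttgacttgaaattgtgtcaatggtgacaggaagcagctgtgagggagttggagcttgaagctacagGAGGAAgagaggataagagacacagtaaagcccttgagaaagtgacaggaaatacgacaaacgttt
Procr: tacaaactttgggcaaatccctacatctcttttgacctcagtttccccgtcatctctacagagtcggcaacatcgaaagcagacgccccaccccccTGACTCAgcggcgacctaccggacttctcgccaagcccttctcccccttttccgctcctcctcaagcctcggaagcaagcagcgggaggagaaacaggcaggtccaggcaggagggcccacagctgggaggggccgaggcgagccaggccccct
Capitals mark GAGGAA, the core that ETS factors such as PU.1 bind, in F13a1 and TGACTCA, an AP-1 motif, in Procr.

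The 7 members with an upstream sequence in the RefSeq table (none was present for Thbd and Plau) were searched on both strands for 5 short motifs. GAGGAA was found in F13a1 66 bases before the RefSeq start, in F7 and in Plaur, 3 of 7 members, and in 23.3% of all 32851 promoters. The AP-1 motif TGANTCA was found in Procr 154 bases before the RefSeq start, in F3 and in Plaur, also 3 of 7, and in 6.75% of all promoters. GGGCGG, the GC box, was found in F3, Tfpi and Plaur, against 32.7% of promoters. TGCTGA, a MAF recognition motif, and TATAAA, the TATA box, were found in Tfpi alone among the members, against 16.1% and 12.4% of promoters. No searched motif overlapped another in the F13a1 and Procr windows, and these matches describe letters, not binding.

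**Figure D3:**
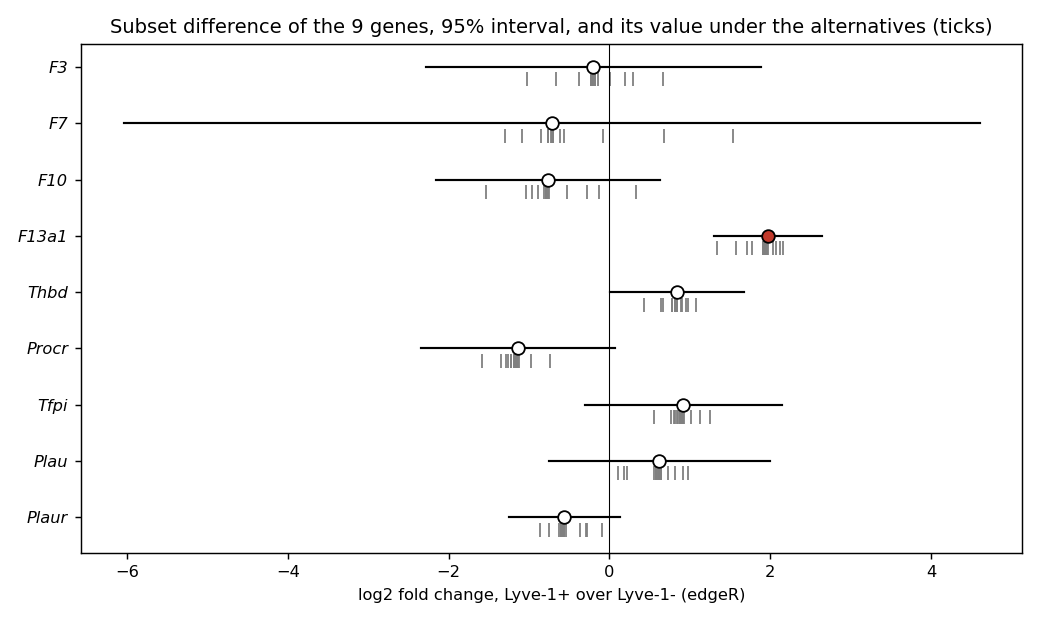
Log2 fold change of each of the 9 genes (x axis, Lyve-1+ over Lyve-1-) with its 95% interval from edgeR's test; the filled point is the gene with an adjusted p under 0.05, and ticks under each line are the values under the alternative settings. F13a1 stays above 0 throughout, from 1.34 to 2.16, while the ticks of F3, F7 and F10 fall on both sides of 0.

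The anticoagulant genes went different ways. Procr encodes the receptor that presents protein C to the thrombin-thrombomodulin complex (chr2:155751117-155755471, plus strand). It was at 45.5, 38.1 and 57.1 CPM in Lyve-1- replicates 1, 2 and 3 and at 24.8, 32 and 6.8 CPM in Lyve-1+ replicates 1, 2 and 3. All 3 Lyve-1+ libraries were below all 3 Lyve-1- libraries, but they differed among themselves by 4.7-fold, and the lowest, replicate 3, held only 54 counts. The log2 fold change was -1.14 (SE 0.57, 95% interval -2.35 to 0.07), with an adjusted p = 0.698 in edgeR's test, so the difference did not pass the test.

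Thbd encodes thrombomodulin, the receptor that changes the substrate of thrombin, and is a gene of a single exon (chr2:148404466-148408188, minus strand). Its level was 60.2, 64.5 and 38.3 CPM in Lyve-1- replicates 1, 2 and 3, and 90.1, 59 and 142 CPM in Lyve-1+ replicates 1, 2 and 3. Lyve-1+ replicate 2 fell within the Lyve-1- range, and the other Lyve-1+ libraries lay above it. The log2 fold change of 0.84 (SE 0.39, 95% interval 0.001 to 1.67) had an adjusted p = 0.648 in edgeR's test.

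Tfpi encodes the inhibitor of the tissue factor complex and of activated factor X (chr2:84432855-84476775, minus strand). Lyve-1- replicates 1, 2 and 3 held 18.1, 14.5 and 24.1 CPM and Lyve-1+ replicates 1, 2 and 3 held 40.3, 50.8 and 15.8 CPM. Lyve-1+ replicates 1 and 2 were above all Lyve-1- libraries and replicate 3 was among them. The log2 fold change was 0.92 (SE 0.57, 95% interval -0.31 to 2.15) with an adjusted p = 0.897 in edgeR's test. Since these 3 genes are known from endothelium, its markers were set beside them: 8 blood endothelial markers summed to 208, 156 and 87.9 CPM in Lyve-1- replicates 1, 2 and 3 and to 128, 307 and 79 CPM in Lyve-1+ replicates 1, 2 and 3. The 6 lymphatic markers summed to 14.6 to 60.2 CPM in Lyve-1- and 17.1 to 42.7 CPM in Lyve-1+ libraries. Only 1 of them was counted in every library, and Ccl21a was at 0 in all. Lymphatic markers at 0 numbered 5, 5 and 1 in Lyve-1- and 1, 1 and 2 in Lyve-1+ replicates 1, 2 and 3. The part of endothelial cells was not tested.

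The plasminogen activation genes were among the most abundant members and overlapped between subsets. Plau encodes urokinase, the secreted protease that cuts plasminogen (chr14:20836660-20843385, plus strand). Its level was 458, 484 and 127 CPM in Lyve-1- replicates 1, 2 and 3 and 615, 822 and 209 CPM in Lyve-1+ replicates 1, 2 and 3. Replicate 3 was the lowest in both subsets, and within a subset the pools differed by 3.81-fold and 3.93-fold. Between libraries of the same number, the Lyve-1+ level was 1.34, 1.7 and 1.64 times the Lyve-1- level, though the labels do not say whether the numbers mark shared mice. The log2 fold change was 0.62 (SE 0.60, 95% interval -0.75 to 2.00), with an adjusted p = 1 in edgeR's test.

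Plaur encodes the receptor that holds urokinase at the cell surface (chr7:24462484-24475968, plus strand). Its level was 439, 249 and 361 CPM in Lyve-1- replicates 1, 2 and 3 and 142, 324 and 244 CPM in Lyve-1+ replicates 1, 2 and 3. The subsets overlapped, with the highest level in the Lyve-1- and the lowest in the Lyve-1+ pool of 6-week-old mice. The log2 fold change was -0.56 (SE 0.32, 95% interval -1.25 to 0.13) with an adjusted p = 0.845 in edgeR's test. The fitted difference of the protease and that of its receptor thus had opposite signs, and both intervals include 0.

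The genes that start and carry forward clotting varied widely between pools of the same subset, F3 by 6.63-fold and 8.3-fold and F10 by 2.99-fold and 7.42-fold. F10 encodes factor X (chr8:13037308-13056676, plus strand), and lies next to F7 on chromosome 8. F10 was at 121, 40.4 and 49.6 CPM in Lyve-1- replicates 1, 2 and 3 and at 10.1, 74.7 and 38.8 CPM in Lyve-1+ replicates 1, 2 and 3. At 6 weeks the Lyve-1- library was 12 times the Lyve-1+ library, whereas the 10-week libraries of the subsets overlapped. The log2 fold change over all libraries was -0.77 (SE 0.64, 95% interval -2.16 to 0.62) with an adjusted p = 1 in edgeR's test, and with the 10-week libraries alone it was 0.34. Hepatocyte markers, listed because factor X is known from liver, summed to 793, 823 and 68.2 CPM in Lyve-1- replicates 1, 2 and 3 and to 96.2, 3.74 and 1370 CPM in Lyve-1+ replicates 1, 2 and 3, and their part in the F10 levels was not tested.

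F3 encodes tissue factor, the membrane protein that starts clotting (chr3:121723537-121735048, plus strand). Lyve-1- replicates 1, 2 and 3 held 21.3, 17.9 and 3.21 CPM, and Lyve-1+ replicates 1, 2 and 3 held 2.74, 22.8 and 11.3 CPM. High and low libraries were present in both subsets. Its log2 fold change was -0.20 (SE 0.98, 95% interval -2.29 to 1.88; adjusted p = 1 in edgeR's test), and its sign turned in the 10-week libraries alone (0.66) and without Lyve-1- replicate 1 (0.19), Lyve-1- replicate 2 (0.01) or Lyve-1+ replicate 1 (0.30).

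F7 encodes factor VII, the protease that tissue factor binds (chr8:13026034-13035809, plus strand). It had 0, 8 and 31 counts in Lyve-1- replicates 1, 2 and 3 and 19, 17 and 7 counts in Lyve-1+ replicates 1, 2 and 3. The 31 counts were in the library richest in olfactory receptor counts, whose density would give 4.93 counts over the length of F7. Its log2 fold change of -0.72 (SE 2.49, 95% interval -6.05 to 4.61) was 1.54 without that library, and no difference of F7 was detected on these few counts.

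**Figure D4:**
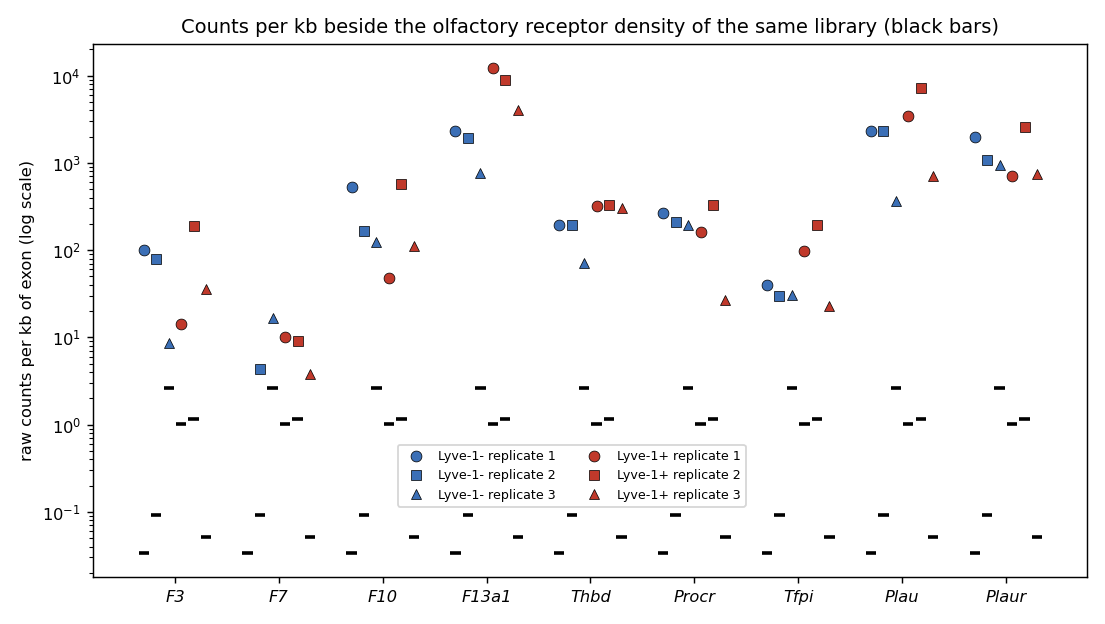
Raw counts per kb of exon (y axis, log scale) of the 9 genes in each library, in color by subset and by shape for the replicate, with black bars at the density of olfactory receptor counts in the same library. F7 in Lyve-1- replicate 1 has 0 counts and is not drawn; all other points lie above their bar, F3 in Lyve-1- replicate 3 by 3.28 times and F13a1 by 286 times or more.

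The members were also set in order of their level per length. In Lyve-1- macrophages, F13a1, Plau and Plaur led with means of 158, 151 and 134 CPM per kb, and the libraries of neighbours in this order overlapped. F10, Procr and Thbd followed with 25.7, 23.1 and 14.6 CPM per kb, where F10 and Procr overlapped and Procr and Thbd did not. F3, Tfpi and F7 were lowest with 5.58, 3.45 and 0.938 CPM per kb, where F3 and Tfpi overlapped and Tfpi and F7 did not.

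In Lyve-1+ macrophages, F13a1 stood alone at 619 CPM per kb, and its lowest library (424 CPM per kb) was above the highest of Plau (347 CPM per kb). This level of F13a1 ranked 38 among 13264 tested genes of known length, against rank 201 in Lyve-1- macrophages. Plau and Plaur followed at 232 and 90.6 CPM per kb and overlapped. Thbd, F10, Procr, Tfpi and F3 came next at 26.1, 15.1, 10.4, 6.52 and 4.86 CPM per kb, each overlapping its neighbour, and F7 was last at 0.564 CPM per kb.

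Age could be compared only with 1 library per subset at 6 weeks, so age and that pool cannot be told apart. F13a1 had a log2 difference of -0.74 (SE 0.24) at 10 against 6 weeks, with an adjusted p = 1 in edgeR's test with the subset as a second term. It was the 1 member with an unadjusted p under 0.05, against 3.33% of all genes, and no member passed an adjusted p under 0.05 (0.0225% of genes). The difference between the subsets itself differed with age by 3.92 (SE 0.95) on the log2 scale for F10, with an adjusted p = 0.477, and by 1.52 (SE 0.60) for Plaur, with an adjusted p = 0.976. These 2 members were past an unadjusted p of 0.05 for the interaction, against 4.59% of all genes, and no member passed after adjustment (0.00749% of genes). The interaction of F13a1 was -0.53 (SE 0.47, adjusted p = 0.976).

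Other genes of clotting and fibrinolysis were taken as 47 listed genes in 7 roles, of which 33 passed the filter. In edgeR's test 0 of them had an adjusted p under 0.05 (0.629% of all genes) and 4 an unadjusted p under 0.05 (7.69%), and DESeq2 with the stricter limits called 1 (0.952%). In Lyve-1+ macrophages 16 had a higher and 17 a lower fitted level, with a median log2 fold change of -0.13, and 3 were higher (Ggcx, Vkorc1l1 and Pros1) and 2 lower (Serpinc1 and Anxa2) without overlap, beside 7.82% and 6.5% of all genes. All 5 genes of the vitamin K cycle and of the transport of factors V and VIII had a higher fitted level (median 0.98), beside 49.4% of all genes. Apart from Ggcx, the 95% interval of each of these genes included 0. Ggcx, the carboxylase that modifies factors VII and X, was at 6.81, 7.29 and 19.2 CPM in Lyve-1- and 55.9, 38 and 50 CPM in Lyve-1+ replicates 1, 2 and 3. The 2 subsets did not overlap for Ggcx, and its log2 fold change was 2.12 (SE 0.58, adjusted p = 0.164 in edgeR's test). With DESeq2, 4 of the 44 other clotting genes given a p had an adjusted p under 0.05, as did 343 of 21289 genes. These were Serpinb2 (0.00388), Ggcx (0.0271), Pros1 (0.0392) and Tgm2 (0.0476).

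Among 6 tested genes of other anticoagulants, 4 had a higher and 2 a lower fitted level in the Lyve-1+ subset. Pros1, which encodes protein S, the cofactor of activated protein C, was chosen after its values were seen. It was at 123, 59.7 and 135 CPM in Lyve-1- and 407, 176 and 259 CPM in Lyve-1+ replicates 1, 2 and 3, without overlap. Its log2 fold change was 1.41 (SE 0.37) with an adjusted p = 0.141 in edgeR's test, and it passed the stricter limits with no filter on low counts (adjusted p = 0.00296). Tfpi2, a relative of Tfpi, had the largest fitted difference of that role at -1.53 (SE 2.30, adjusted p = 1) on few counts.

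Of 8 tested genes of the other clotting factors, 2 had a higher and 6 a lower fitted level (median -0.52). F5 encodes factor V, the cofactor of activated factor X, and had the largest difference of them. It was at 1059, 66.2 and 829 CPM in Lyve-1- replicates 1, 2 and 3 and at 61, 22.3 and 183 CPM in Lyve-1+ replicates 1, 2 and 3. The low Lyve-1- library lay within the Lyve-1+ range, and the log2 fold change of -2.88 (SE 1.29) had an adjusted p = 0.742 in edgeR's test. Transcripts of fibrinogen chains and other factors known from liver were low and uneven, for example Fga with 0 to 46.1 CPM among the Lyve-1+ libraries. The 2 tested protease-activated receptors, through which clotting proteases signal to cells, had 1 higher and 1 lower fitted level, with F2rl2 at -1.05 (SE 1.67, adjusted p = 1).

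On the side of fibrinolysis, 7 genes of plasminogen, its other activator and its binding proteins were tested, 2 with a higher and 5 with a lower fitted level (median -0.14). Plat, the tissue-type activator, had the largest difference at -0.48 (SE 0.60, adjusted p = 1 in edgeR's test). S100a10 and Anxa2, which form a plasminogen receptor, were at 319 to 406 and 301 to 486 CPM over all libraries, with log2 fold changes of 0.03 and -0.34. Of 3 tested inhibitors, 1 had a higher and 2 a lower fitted level (median -1.61).

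Serpinb2, an inhibitor of urokinase, was at 230, 15.4 and 48.5 CPM in Lyve-1- replicates 1, 2 and 3 and at 6.71, 16.1 and 10.1 CPM in Lyve-1+ replicates 1, 2 and 3. Lyve-1- replicate 1 was far above all others, and Lyve-1- replicate 2 was within the Lyve-1+ range. Its log2 fold change was -3.16 (SE 0.88, adjusted p = 0.242 in edgeR's test), and it passed the stricter limits with DESeq2 (adjusted p = 0.00388). Without Lyve-1- replicate 1 its log2 fold change was -1.54, and in the 10-week libraries alone it was -1.27, with adjusted p = 0.75 and 1 in edgeR's test. Like F13a1, it had been picked out on these libraries before. Tgm2, a transglutaminase of the same family as F13a1, was at 1144, 202 and 955 CPM in Lyve-1- and 126, 201 and 374 CPM in Lyve-1+ replicates 1, 2 and 3. The subsets overlapped for Tgm2, and the log2 fold change of -1.71 (SE 0.67, adjusted p = 0.564) had the opposite sign to that of F13a1.

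**Figure D5:**
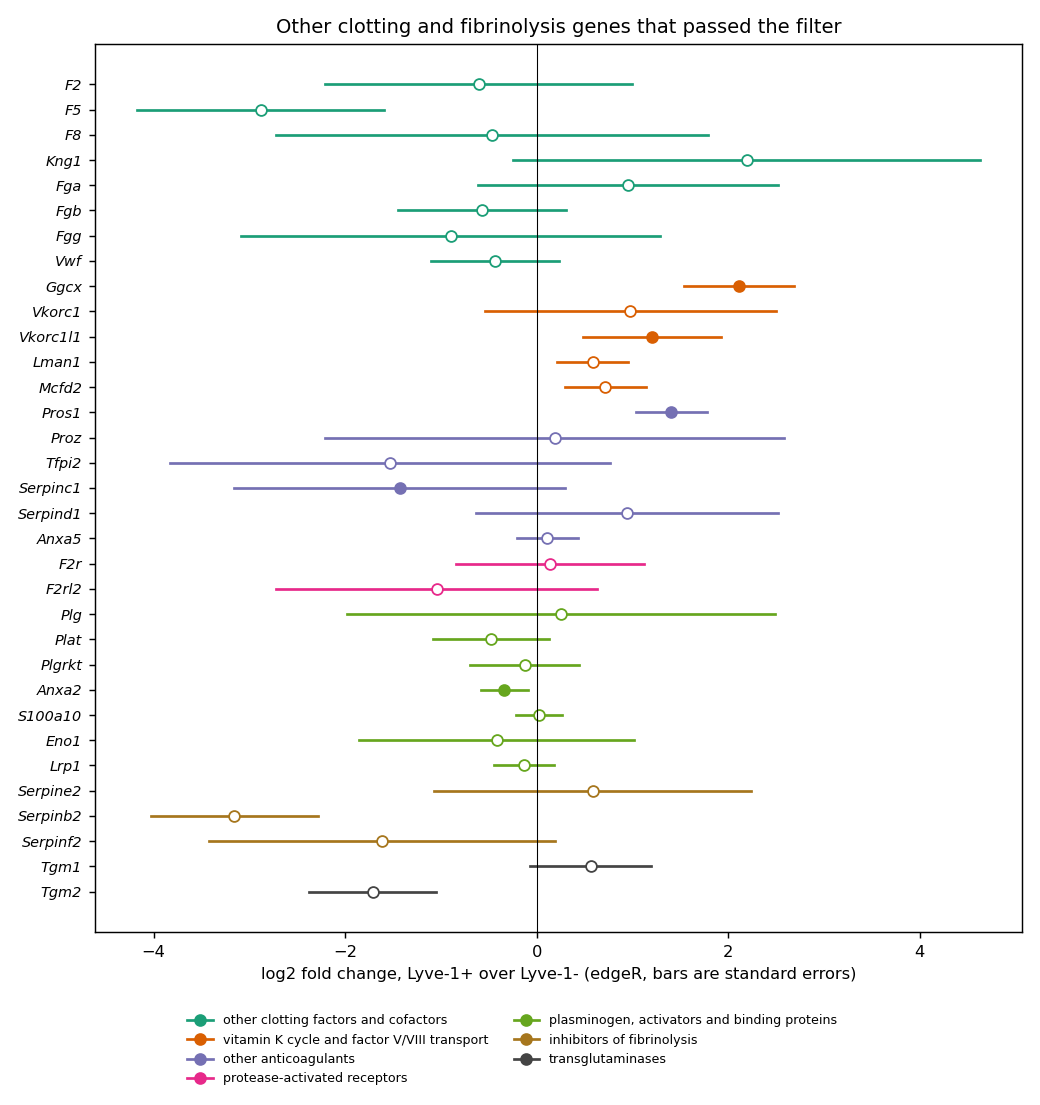
Log2 fold change (x axis, Lyve-1+ over Lyve-1-, bars are standard errors) of the 33 other clotting and fibrinolysis genes that passed the filter, in color by role; filled points are the 5 genes whose subsets do not overlap. No gene has an adjusted p under 0.05 in edgeR's test. All 5 genes of the vitamin K cycle and factor V and VIII transport lie right of 0, and F5 and Serpinb2 lie farthest left.

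The genes most like each member over the 6 libraries were named by Pearson correlation of log2 CPM, which is a description, since the libraries share subset, age and depth and many genes can be matched to 6 points. For F13a1, Snx2 (r = 0.996), which encodes a sorting nexin, is given. Snx2 was at 157 to 277 CPM in Lyve-1- and 536 to 1067 CPM in Lyve-1+ libraries, without overlap. For Plau they were Zcchc2 (r = 0.995) and Msr1 (r = 0.986), a scavenger receptor of macrophages, and for Plaur Fhod1 (r = 0.993) and Pitpnm2 (r = 0.984). For F10 they were Thbs1 (r = 0.991), which encodes thrombospondin, and Sept3 (r = 0.982). Among the anticoagulant genes they were Synrg (r = 0.991) and Gabarap (r = 0.984) for Thbd, Loh12cr1 (r = 0.996) and Sptlc1 (r = 0.994) for Procr, and Arl13b (r = 0.996) and Manf (r = 0.987) for Tfpi. F3 was most like Ugdh (r = 0.995) and Apbb3 (r = 0.977), and F7 like Vti1a (r = 0.998) and Larp1b (r = 0.982).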

How the data were processed

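RNA was sequenced as paired 50-bp reads from Clontech SMARTer Stranded Total RNA-seq Pico libraries of 6 sorted pools, 3 Lyve-1- and 3 Lyve-1+. The authors aligned reads to mm10 with HISAT2 2.0.2, counted them with featureCounts 1.5.0 (the version from the submitters' processing notes) and deposited raw whole-number counts, not normalized. The annotation and strand setting were not given in the sources used here. The study's methods name the removal of a 6-week outlier library and of genes under 300 bp, of which 1278 were still present by GENCODE M21 exon length and were kept.

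Counts were tested in R 4.3.3 with edgeR 4.0.16 (filterByExpr, TMM, robust quasi-likelihood fit, subset as the only term, Benjamini-Hochberg adjustment over 13348 genes). DESeq2 1.42.0 was an alternative, and the edgeR fit was tested on simulated data with 200 genes given a log2 fold change of 2. With the dispersion estimated from these libraries, 28 of them (14%) passed the limits of the calls, and 28% had an adjusted p under 0.05. With a dispersion of 0.1, 178 (89%) passed the limits. Most changes of this size would thus be missed at the estimated dispersion, averaged over genes drawn at random from those tested. The rate for genes counted as well as F13a1, Plau or Plaur was not measured. Age and its interaction with the subset were separate models. Positions and exon lengths came from GENCODE M21 (22749 symbols matched directly, 916 through a RefSeq synonym, 396 not), and upstream sequences from RefSeq (GRCm38.p6). F13a1 shares 74 exon bases with Gm30489 on the opposite strand.

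The members and lists were chosen with earlier results of these data known. Of the other clotting genes, the text names those with an adjusted p under 0.05 and, per role, the one with the largest absolute log2 fold change; the genes most like a member were the 2 with the highest correlation. Outside this rule, Pros1, Vkorc1l1, Serpinc1, Fga, S100a10, Anxa2 and Pf4 were named with their values known. The alternatives were other tools, scalings, filters and covariates, libraries left out, and a background of olfactory receptor counts subtracted. Some genes within these rules are not reported here. For age, settings of scaling and filter were added after seeing the data.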

Additional observations from a re-analysis of the deposited data

How the results depend on the processing

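Under the 18 alternatives, F13a1 kept a log2 fold change of 1.34 to 2.16, with an adjusted p under 0.05 in 16 and under 0.01 in 9. The setting of an adjusted p under 0.05 with no fold limit, counted among these 18 and 16, is the main fit read at another limit. Its values therefore repeat those of the main fit. It was the 1 member called, where none was in the analysis above, with DESeq2, with no filter on low counts, with at least 10 counts in every library, with the replicate block, with age as a covariate and with an adjusted p under 0.05 alone. Leaving out 1 library at a time gave 0 to 1 members called (F13a1 without Lyve-1- replicate 1 or without Lyve-1+ replicate 1, 2 or 3, with adjusted p = 0.00262, 0.00422, 9.4e-05 and 0.00487) and 0 to 1 with an adjusted p under 0.05. That count fell from 1 to 0 without Lyve-1- replicate 3 (1 member at an unadjusted p under 0.05 in edgeR's test) and without the 2 libraries with the largest share of olfactory receptor counts, Lyve-1- replicate 3 and Lyve-1+ replicate 1 (also 1). Among the other clotting genes, the number called went from 0 to 1 with DESeq2 (Serpinb2), 2 with no filter (Serpinb2 and Pros1) and 1 with the replicate block (Pros1). The number of all genes called went from 15 to 151 with DESeq2, 188 with no filter, 32 with at least 10 counts in every library, 140 (1.05% of genes) with the replicate block, 58 with age as a covariate, 84 at an adjusted p under 0.05 with no fold limit, 1 to 81 with 1 library left out, and 0 without those 2 libraries (639 genes at an unadjusted p under 0.05). The cause of these shifts was not tested.

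The sign turned for F3 in the 10-week libraries alone (0.66; -1.03 to 0.30 with 1 library left out), for F10 there (0.34), and for F7 with the replicate block (0.68; -1.30 to 1.54 with 1 library left out). F7 gave no value under 4 settings because too few counts were left. Thbd, Procr, Tfpi, Plau and Plaur kept their sign under all 18 and passed the limits under none. For age and its interaction, 0 members were called under the 4 settings added. Replicate numbers were not stated to pair the samples, so the replicate block is given only here. Same-numbered libraries had residual correlations of -0.147 to -0.002, and 0 of 6 libraries correlated best with their own number. With 3 pools per subset, these correlations cannot exclude that both libraries of a number came from the same mice. The other scalings shifted the median of all genes by -0.03 (size factors of DESeq2) and -0.07 (total size) on the log2 scale. With 3 pools per subset and a common coefficient of biological variation of 0.931, the 95% intervals of 7 members include changes in both directions.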
